A study of Homo sapiens with 64 samples.

Results

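The transcriptome of NCI-H295R cells was compared between cells transfected with an siRNA against NNT, called siRNA-3 in the labels, and cells transfected with a scrambled siRNA, both 72 h after transfection. The members were chosen by their labels: 3 libraries of siRNA-3 (11-1, 23-5 and 30-11) and 3 of the scrambled siRNA (16-1, 23-5 and 30-11), 6 of the 16 libraries of the series and 24 of its 64 lane files. NCI-H295R, an established human line from an adrenocortical carcinoma, secretes steroid hormones. The other 10 libraries came from the same line with a further siRNA against NNT (siRNA-2, 3 libraries), an NNT shRNA (4 libraries) or a scrambled shRNA (3 libraries). Those of siRNA-2 are also of 72 h, while no time is given for the shRNA groups. The labels give no agent other than the siRNA or shRNA, name neither the target sequence of siRNA-3 nor the meaning of the library codes, and do not say whether each library had its own culture. The p-values therefore rest on the spread among the libraries as deposited, which may be technical. The design text sets each knockdown against its scrambled control, and the question of this comparison is which transcripts differ when NNT is lowered by siRNA-3.

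NNT, nicotinamide nucleotide transhydrogenase, sits in the inner mitochondrial membrane and uses the proton gradient to pass hydride from NADH to NADP+, which makes mitochondrial NADPH. In adrenocortical cells this NADPH serves the glutathione and thioredoxin systems that remove peroxides, and it is also the reductant of the mitochondrial steroid hydroxylases, which receive their electrons through ferredoxin. Loss of NNT in humans causes familial glucocorticoid deficiency, in which the adrenal cortex makes too little cortisol.

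The 6 libraries held 20148231 to 40100812 counts in genes, and libraries of a group differed far beyond sampling noise (chi-square per degree of freedom 17 to 34.9 between pairs, against 1.01 to 1.03 between lanes). Levels are given as CPM, the count of a gene scaled to a common library total after TMM normalization. Adrenocortical genes were expressed, though not evenly. NR5A1, the factor that drives the steroidogenic programme, stood at 391, 467 and 476 CPM with siRNA-3 against 382, 382 and 485 CPM with the scrambled siRNA. The 13 listed markers together ran from 4526 to 5278 CPM after siRNA-3, the controls lying between 3850 and 5109 CPM. Of these, 12 were high enough to test. MRAP was low, at 3.75, 3.5 and 2.3 CPM with siRNA-3 against 2.22, 2.73 and 2.54 CPM with the scrambled siRNA. Of the markers of chromaffin or neural cells, 5 of 12 were at 0 in all 6 libraries (among them PNMT and STMN2), and together the 12 ran from 319 to 401 CPM after siRNA-3, the controls lying between 403 and 422 CPM, most of it NCAM1. Markers of fibroblasts, endothelium and blood cells together ran from 10.1 to 13.8 CPM after siRNA-3, the controls lying between 13.9 and 16.7 CPM, with 3 of 17 at 0 throughout, PECAM1, VWF and CD3E. Both sums of markers of other cells were lower in every siRNA-3 library than in every scrambled one, and their part in the differences below was not tested. In bulk RNA, fewer cells of a kind and less RNA per cell cannot be told apart.

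NNT fell. It stood at 36.1, 31.8 and 47.8 CPM in the siRNA-3 libraries 11-1, 23-5 and 30-11, against 353, 296 and 362 CPM in the scrambled libraries 16-1, 23-5 and 30-11. The highest siRNA-3 library lay far under the lowest scrambled one, with means of 38.6 ± 8.28 CPM against 337 ± 35.7 CPM (SD, n = 3 each), an 8.73-fold lower level (log2 fold change -3.13, SE 0.35, adjusted p = 0.000172 in edgeR's quasi-likelihood test with Benjamini-Hochberg adjustment over all genes, the source of every adjusted p here unless another tool is named). The gene spans chr5:43602692-43707405 on the plus strand of GRCh38 in GENCODE v29, and the antisense gene NNT-AS1 overlaps its start. NNT-AS1 read 39.7, 33.2 and 35.4 CPM with siRNA-3 against 29.1, 32.9 and 31.6 CPM with the scrambled siRNA and was not called (log2 fold change 0.21, SE 0.12, adjusted p = 0.395). The strand setting of the counting is not given in the sources used here.

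Of 15201 genes tested, 323 were called at an adjusted p under 0.05 (2.12%), 131 higher (0.862%) and 192 lower (1.26%) with siRNA-3. At an unadjusted p under 0.05 stood 2706 genes (17.8%), and DESeq2 called 848 (5.58%), the shares against which the same counts in a gene list are to be read. The median log2 fold change of all genes was -0.00, and 49.5% of genes lay above 0. Most calls were small: the median called gene was 1.39-fold higher or 1.54-fold lower, and 39 reached 2-fold, 8 higher and 31 lower. In 320 of the 323 the groups did not overlap, while over all genes tested that held for 21.1%. The 3 called genes whose groups overlapped were ITGA1, an integrin subunit (998 ± 348 CPM against 532 ± 150.3 CPM), SESN3, a sestrin of nutrient and redox signalling (30.6 ± 14.6 CPM against 57.3 ± 10.4 CPM), and SLC2A3, a glucose transporter (111 ± 31.7 CPM against 73 ± 10.4 CPM). ITGA1 and SESN3 are named after their values were seen.

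**Figure D1:**
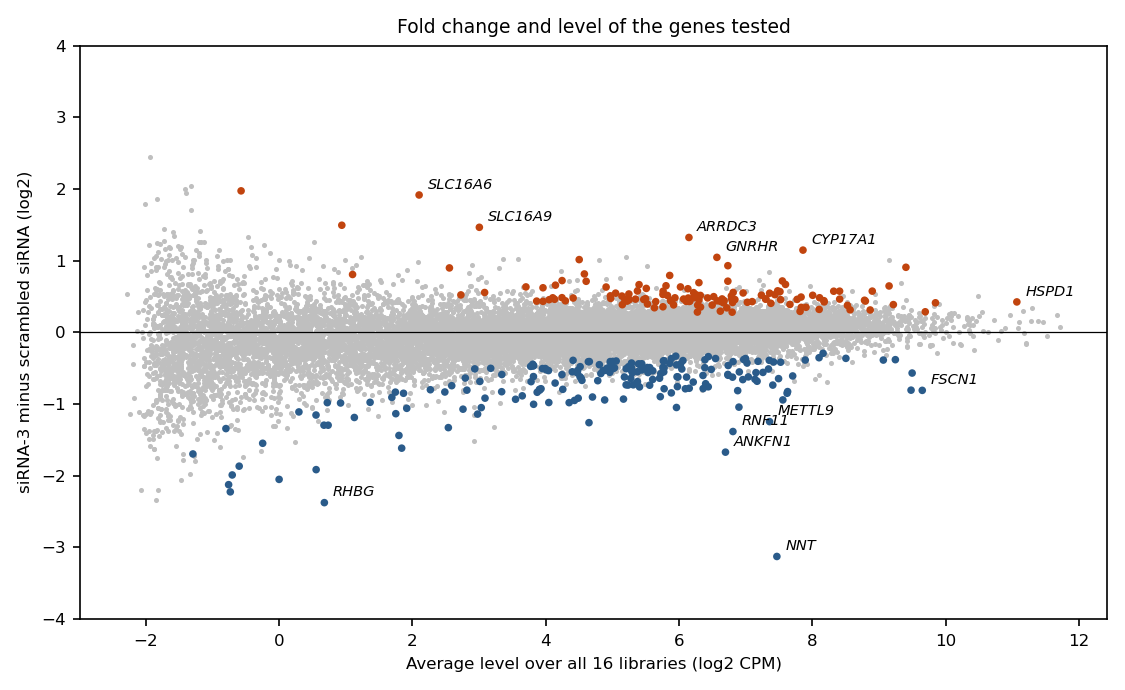
Log2 fold change of siRNA-3 against scrambled siRNA (y axis) against the average log2 CPM over all 16 libraries (x axis), 1 point per gene tested. Grey points were not called, the 131 orange points were called higher and the 192 blue points lower; NNT is the lowest called point at -3.13, and most calls lie within 1 of 0.

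SLC16A9, SLC16A6 and ARRDC3 rose at least 2-fold. SLC16A9, a transporter of the monocarboxylate family linked to carnitine export, stood at 22.6, 18.7 and 18.2 CPM in the siRNA-3 libraries 11-1, 23-5 and 30-11, against 8.43, 5.53 and 7.77 CPM in the scrambled libraries 16-1, 23-5 and 30-11. Every siRNA-3 library was above every scrambled one, a 2.76-fold difference (log2 fold change 1.46, SE 0.16, adjusted p = 0.000172). SLC16A6, of the same family and known in zebrafish liver as an exporter of ketone bodies, read 15.9, 14.5 and 8.04 CPM with siRNA-3 against 2.74, 3.9 and 3.49 CPM with the scrambled siRNA, with library 30-11 the lowest of the siRNA-3 libraries and still above all controls (3.77-fold, log2 fold change 1.92, SE 0.26, adjusted p = 0.000928). Of 9 tested members of the SLC16 family and its chaperones, these were the 2 called, and the lactate transporter SLC16A1 was not (log2 fold change 0.32, SE 0.14, adjusted p = 0.25). ARRDC3, an alpha-arrestin that directs membrane proteins to endosomes, read 152, 161 and 118 CPM with siRNA-3 against 50.9, 61.8 and 59.3 CPM with the scrambled siRNA. That was a 2.5-fold rise with no overlap (log2 fold change 1.32, SE 0.16, adjusted p = 0.000539), and none of the other 7 tested alpha-arrestins and sugar-sensing regulators was called, TXNIP having a log2 fold change of -0.45 (SE 0.27).

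CYP17A1 rose too. The enzyme carries the 17-hydroxylase and 17,20-lyase steps that lead to cortisol and to androgens, and its transcript stood at 371, 436 and 353 CPM in the siRNA-3 libraries 11-1, 23-5 and 30-11, against 170.4, 130.4 and 224 CPM in the scrambled libraries 16-1, 23-5 and 30-11. All siRNA-3 libraries were above all scrambled siRNA libraries, of which 30-11 was the highest and 23-5 the lowest (2.21-fold, log2 fold change 1.15, SE 0.26, adjusted p = 0.0271). The scrambled shRNA libraries 18-3, 19-2 and 24-2 read 182.2, 373.6 and 188.1 CPM, so 19-2 was above siRNA-3 libraries 11-1 and 30-11. The call did not hold in 4 of the 6 fits that each left out 1 library: without siRNA-3 library 11-1 (adjusted p = 0.0977) or 23-5 (0.0747), and without scrambled library 16-1 (0.102) or 23-5 (0.122). GNRHR, the receptor of gonadotropin-releasing hormone, read 201, 194 and 135 CPM with siRNA-3 against 87.5, 78 and 91.4 CPM with the scrambled siRNA, with 30-11 the lowest of the siRNA-3 libraries (2.06-fold, log2 fold change 1.05, SE 0.14, adjusted p = 0.00128), and was called in each of the 6 fits. MAN1A1, a Golgi mannosidase that trims N-glycans, read 40.9, 29.4 and 32.6 CPM with siRNA-3 against 14.1, 15.4 and 21.6 CPM with the scrambled siRNA (2.02-fold, log2 fold change 1.01, SE 0.20, adjusted p = 0.0153) and was called in 3 of the 6.

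Among regulators of growth, CCNE1, the cyclin that drives entry into S phase, read 189.5, 170.3 and 141 CPM with siRNA-3 against 95.8, 84.8 and 82.5 CPM with the scrambled siRNA. The groups were 1.9-fold apart (log2 fold change 0.93, SE 0.15, adjusted p = 0.00321), and the gene was called in all 6 fits. SPRED2, an inhibitor of Ras and ERK signalling, rose by 0.81 on the log2 scale (adjusted p = 0.0183) and PPP2R1B, a scaffold subunit of protein phosphatase 2A, by 0.79 (adjusted p = 0.00142). ZNF678, a zinc finger protein, rose by 0.72 (adjusted p = 0.0197), and the sterol oxidase MSMO1 by 0.72. SPRED2, PPP2R1B, ZNF678 and MSMO1 were called in 4, 6, 2 and 2 of the 6 fits. By CPM, with no correction for length, the highest called genes were HSPD1, the mitochondrial chaperonin, at 3063, 2518 and 2433 CPM with siRNA-3 against 2039, 1961 and 1974 CPM with the scrambled siRNA (log2 fold change 0.42, SE 0.08, adjusted p = 0.0152), STMN1, which destabilises microtubules (0.41, adjusted p = 0.0461), and MORF4L1, a chromatin protein (0.29, adjusted p = 0.044). Each was under 1.39-fold, and they were called in 4, 2 and 1 of the 6 fits.

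**Figure D2:**
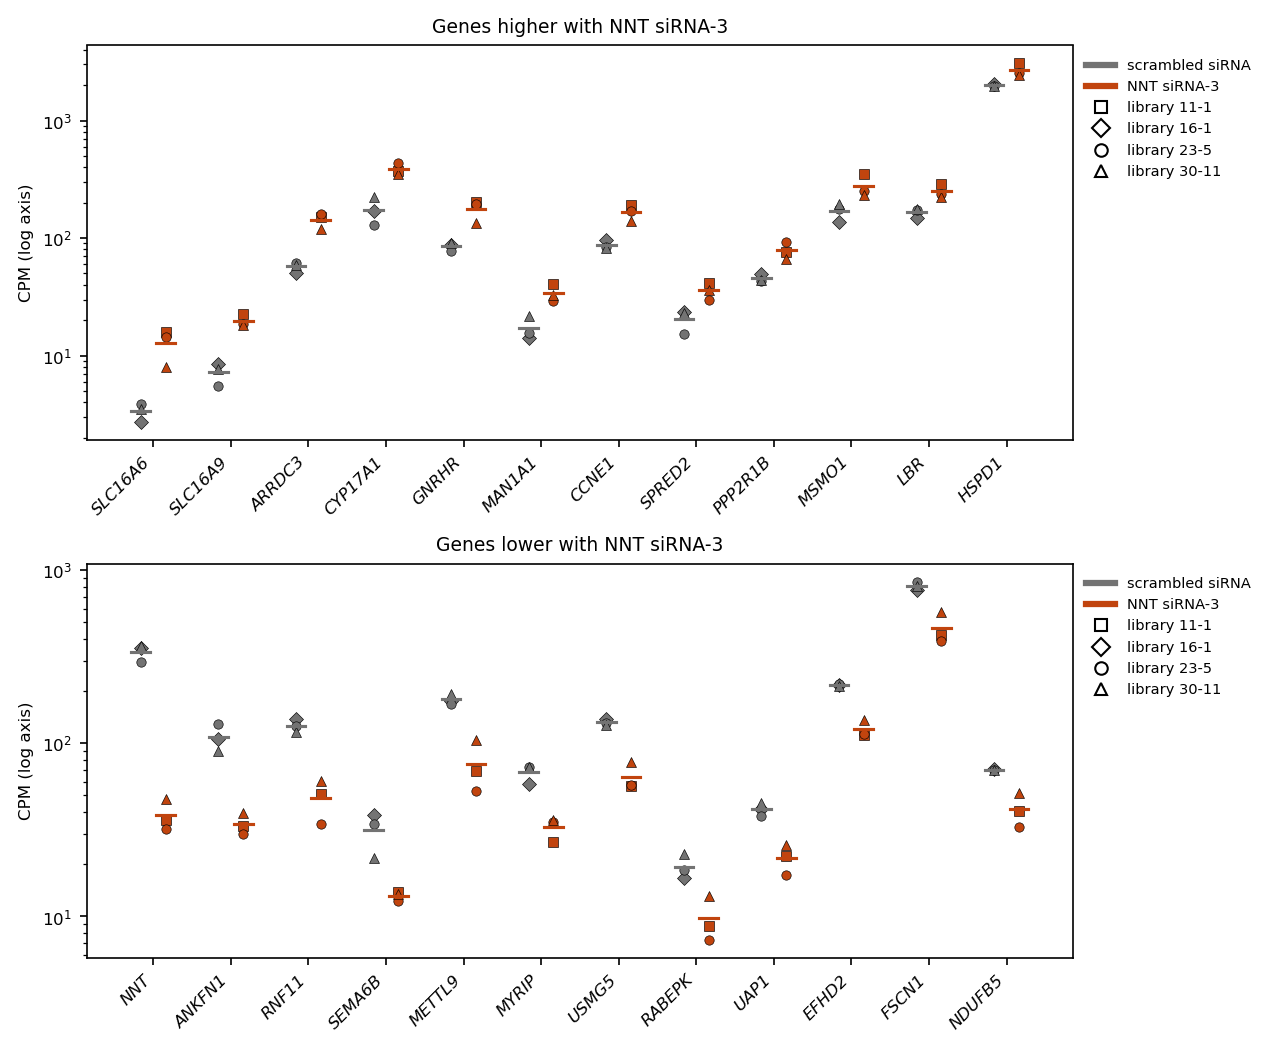
CPM on a log axis for 12 genes called higher and 12 called lower with siRNA-3, 1 point per library, with its shape giving the library code and the line the mean of 3 libraries. The siRNA-3 points lie on 1 side of the scrambled points for each gene shown, and siRNA-3 library 30-11 is the nearest to the controls for NNT, RNF11 and METTL9.

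Promoter sequences are shown for the 5 called genes that rose at least 2-fold with groups apart and a mean log2 CPM no lower than 3. In all, 8 called genes rose at least 2-fold. SLC16A6, which rose 3.77-fold, is left out because its mean log2 CPM over all 16 libraries was 2.10. Each line gives the 250 bases before the start in RefSeq's GRCh38.p14 table, read 5′ to 3′ along the gene, and capitals mark 3 motifs searched on both strands: CAAGGTNA, the type of site bound by NR5A1, CACGTG, the E-box, and TGACG, the core of the cAMP response element. SLC16A9 and ARRDC3 have 2 starts in the table, and the first listed is shown.
SLC16A9, chr10:59710080-59710329, minus strand: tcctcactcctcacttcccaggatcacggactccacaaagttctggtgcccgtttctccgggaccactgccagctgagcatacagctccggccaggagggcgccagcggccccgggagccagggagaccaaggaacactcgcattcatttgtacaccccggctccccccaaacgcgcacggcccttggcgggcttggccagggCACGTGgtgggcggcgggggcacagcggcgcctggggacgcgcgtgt
ARRDC3, chr5:91383318-91383567, minus strand: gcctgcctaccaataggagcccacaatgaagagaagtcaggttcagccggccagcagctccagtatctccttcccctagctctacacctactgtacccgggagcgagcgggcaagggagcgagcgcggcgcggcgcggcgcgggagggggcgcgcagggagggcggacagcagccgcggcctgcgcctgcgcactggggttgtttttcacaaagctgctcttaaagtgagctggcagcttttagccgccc
CYP17A1, chr10:102837414-102837663, minus strand: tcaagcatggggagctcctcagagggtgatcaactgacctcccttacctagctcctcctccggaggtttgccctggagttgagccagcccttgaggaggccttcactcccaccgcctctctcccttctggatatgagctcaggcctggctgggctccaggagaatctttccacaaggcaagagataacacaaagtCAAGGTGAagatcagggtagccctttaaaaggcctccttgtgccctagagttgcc
GNRHR, chr4:67754389-67754638, minus strand: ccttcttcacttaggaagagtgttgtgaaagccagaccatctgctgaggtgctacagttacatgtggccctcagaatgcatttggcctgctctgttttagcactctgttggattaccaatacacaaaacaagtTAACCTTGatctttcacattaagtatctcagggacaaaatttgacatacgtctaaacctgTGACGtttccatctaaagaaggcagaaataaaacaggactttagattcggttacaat
MAN1A1, chr6:119349762-119350011, minus strand: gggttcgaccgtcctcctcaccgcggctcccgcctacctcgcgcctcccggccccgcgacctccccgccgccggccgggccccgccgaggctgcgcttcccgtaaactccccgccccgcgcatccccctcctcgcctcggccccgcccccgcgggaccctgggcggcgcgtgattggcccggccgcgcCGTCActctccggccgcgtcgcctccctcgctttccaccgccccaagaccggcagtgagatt

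CAAGGTNA occurred in the CYP17A1 promoter and, on the opposite strand, in that of GNRHR, which also held a TGACG. SLC16A9 held 1 CACGTG, MAN1A1 held 1 TGACG on the opposite strand, and ARRDC3 held none of the 3 in this window. No motif overlapped another. Over all 27305 promoters of the table, 1 per gene, 2.88% held CAAGGTNA, 6.49% CACGTG and 21.7% TGACG. Over the 11003 tested genes found in the table, the shares were 2.09%, 8.69% and 29.1%. The motifs were chosen after the printed promoters had been read, so the matches describe and do not test. GC content of the 5 stretches ran from 40.4% (GNRHR) to 78.4% (MAN1A1).

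RNF11, METTL9 and USMG5 fell more than 2-fold. RNF11, a RING finger protein that works with ubiquitin ligases of the NEDD4 family, had the smallest p of all genes. It stood at 51.2, 34.1 and 60.2 CPM in the siRNA-3 libraries 11-1, 23-5 and 30-11, against 138, 126 and 116 CPM in the scrambled libraries 16-1, 23-5 and 30-11. The groups were far apart, with siRNA-3 library 23-5 the lowest (2.61-fold lower, log2 fold change -1.38, SE 0.14, adjusted p = 0.000109). None of the other 15 tested NEDD4-family ligases and adaptors was called. METTL9, a histidine methyltransferase, read 68.8, 53.1 and 104 CPM with siRNA-3 against 175, 169 and 193 CPM with the scrambled siRNA (2.37-fold lower, log2 fold change -1.25, SE 0.16, adjusted p = 0.000574). USMG5, a small subunit of the mitochondrial ATP synthase, read 56.7, 57.5 and 77.9 CPM with siRNA-3 against 139, 131 and 127 CPM with the scrambled siRNA (2.06-fold lower, log2 fold change -1.04, SE 0.11, adjusted p = 0.000164). For both, library 30-11 had fallen least and still lay under every control.

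The widest fall after NNT among genes of average log2 CPM of at least 3 was that of ANKFN1, which carries ankyrin and fibronectin repeats, with 33.3, 29.9 and 39.4 CPM with siRNA-3 against 107, 129.7 and 90.6 CPM with the scrambled siRNA (3.19-fold lower, log2 fold change -1.67, SE 0.26, adjusted p = 0.00278). SEMA6B, a semaphorin of axon guidance, fell by 1.26 on the log2 scale (adjusted p = 0.00605) and MYRIP, which links secretory granules to myosin, by 1.05 (adjusted p = 0.000928). BASP1, a membrane-bound signalling protein, fell by 1.00 (adjusted p = 0.00321) and RABEPK, an effector of RAB9 in endosome traffic, by 0.98 (adjusted p = 0.00468). All 5 were called in each of the 6 fits. CEMIP, which takes part in hyaluronan breakdown, fell by 1.05 (adjusted p = 0.0477) and was called in 1 of the 6. For CEMIP the scrambled siRNA was the high group, with a mean of 12.1 CPM. Its other group means were 5.80 (siRNA-3), 7.01 (siRNA-2), 8.21 (NNT shRNA) and 7.81 CPM (scrambled shRNA). Between siRNA-3 and siRNA-2 CEMIP was not called (adjusted p = 0.537). The actin genes FSCN1, a bundling protein, and LIMK1, the kinase of cofilin, read 421, 389 and 576 CPM with siRNA-3 against 766, 858 and 805 CPM with the scrambled siRNA, and 24.2, 23.7 and 30.8 CPM with siRNA-3 against 42.3, 46.1 and 42.7 CPM with the scrambled siRNA. They fell by 0.81 (adjusted p = 0.00321) and 0.74 (adjusted p = 0.00128) with no overlap.

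Further genes with small p that fell were UAP1, which makes UDP-N-acetylglucosamine (-0.93, adjusted p = 0.000928), SLC39A14, a zinc and iron transporter (-0.79, adjusted p = 0.00137), KIAA1143 (-0.78, adjusted p = 0.00137) and EFHD2, a calcium-binding protein (-0.85, adjusted p = 0.00137). EFHD2 was even within groups, at 112, 113 and 137 CPM with siRNA-3 against 217, 221 and 215 CPM with the scrambled siRNA. Beside FSCN1, the genes that fell with the highest CPM were MME, the membrane peptidase neprilysin (485, 433 and 502 CPM with siRNA-3 against 678, 649.9 and 778 CPM with the scrambled siRNA, log2 fold change -0.57, SE 0.11, adjusted p = 0.0138), and TMEM245 (-0.39, adjusted p = 0.0391), called in 5 and 2 of the 6 fits.

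The number of calls depended on single libraries. It was 69 without siRNA-3 library 11-1, 192 without 23-5 and 530 without 30-11, and 100, 77 and 251 without the scrambled libraries 16-1, 23-5 and 30-11. With only these 6 libraries in the fit it was 56, and without siRNA-2 library 11-1, which belongs to neither group but enters the shared spread, it was 594, a choice made after seeing the data. Called in the full fit and in each of the 6 reduced ones were 57 genes, 17 higher and 40 lower, 16 of them at least 2-fold; 9 of the 323 were called in none of the 6. The 57 hold NNT, SLC16A9, SLC16A6, ARRDC3, GNRHR, CCNE1, PPP2R1B, RNF11, METTL9, USMG5, ANKFN1, SEMA6B, MYRIP, FSCN1 and NDUFB5. Others of the 57 named by their small p were TAPT1, a membrane protein linked to cilia (0.66), DDX18, a nucleolar helicase (0.55), E2F2, a cell cycle factor (0.58), MTF2, which recruits the Polycomb repressive complex (0.65), and G3BP2 of stress granules (0.44), with adjusted p from 0.000574 to 0.00321.

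**Figure D3:**
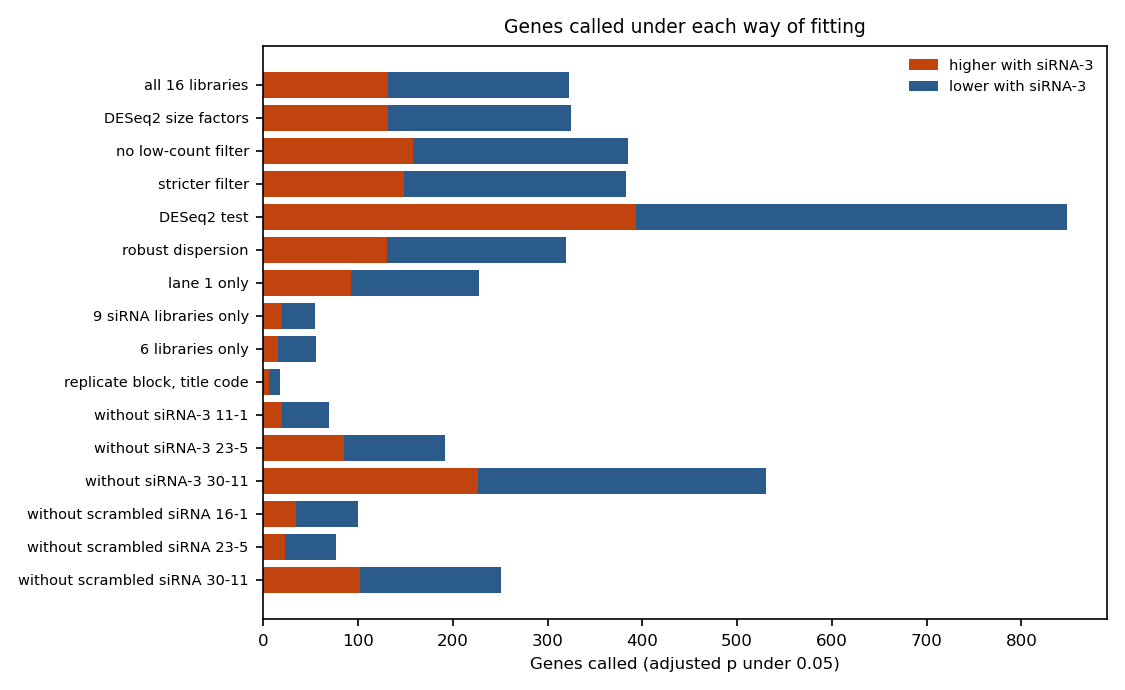
Genes called at an adjusted p under 0.05 (x axis) under each way of fitting (y axis), split into genes higher (orange) and lower (blue) with siRNA-3. The count ran from 18 with a replicate block in the 9 siRNA libraries to 848 with DESeq2, around 323 with all 16 libraries.

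In the steroid pathway CYP17A1 was the 1 call of edgeR. Of 23 tested steroid synthesis genes 1 rose and 0 fell, with 7 at an unadjusted p under 0.05 and 3 that DESeq2 called, 18 had a log2 fold change above 0, and the median was 0.16. STAR, which brings cholesterol into the mitochondrion, read 592, 424 and 533 CPM with siRNA-3 against 486, 348 and 515 CPM with the scrambled siRNA and overlapped (log2 fold change 0.20, SE 0.16, adjusted p = 0.539). CYP11A1, the side chain cleavage enzyme, was not called either (log2 fold change 0.16, SE 0.12, adjusted p = 0.538). HSD3B2, which makes progesterone and androstenedione, ran from 15.3 to 80.3 CPM with siRNA-3 and from 13.7 to 40.5 CPM in the controls, library 23-5 being the lowest of both groups, and was not called (log2 fold change 1.00, SE 0.47, adjusted p = 0.271).

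CYP21A2, the 21-hydroxylase, read 324, 234 and 295 CPM with siRNA-3 against 140.0, 138 and 197 CPM with the scrambled siRNA. The groups did not overlap, yet the gene missed the threshold (log2 fold change 0.85, SE 0.23, adjusted p = 0.0573), and its near-identical pseudogene makes the count uncertain. SULT2A1, the sulfotransferase of adrenal androgens, missed it as well (216 ± 42.9 CPM against 130.2 ± 26.5 CPM, log2 fold change 0.73, SE 0.20, adjusted p = 0.0649), as did CYP19A1, the aromatase (62.4 ± 27.9 CPM against 30.4 ± 13.8 CPM, log2 fold change 1.05, SE 0.34, adjusted p = 0.111); these 2 are named after their values were seen. CYP11B1 was too low to test, at 0.0595, 0 and 0.0255 CPM with siRNA-3 and 0, 0 and 0.0498 CPM with the scrambled siRNA. MC2R, the ACTH receptor, read 20.9, 12.6 and 22 CPM with siRNA-3 against 7.86, 7.12 and 12.5 CPM with the scrambled siRNA (log2 fold change 1.03, SE 0.29, adjusted p = 0.0659), and PRKAR2B, a regulatory subunit of protein kinase A, was not called (log2 fold change 0.31, SE 0.09, adjusted p = 0.0671). Of the 26 adrenal transcription factors and ACTH signalling genes edgeR called 0, with 6 at an unadjusted p under 0.05, and DESeq2 called 2. The 12 tested adrenocortical markers, which share genes with the steroid list, had a median of 0.39 with CYP17A1 as the 1 call.

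Cholesterol synthesis had 2 of 27 tested genes called, both higher, 22 above 0 and a median of 0.24. MSMO1, which oxidises methyl sterols, read 353, 251 and 231 CPM with siRNA-3 against 137, 176 and 195 CPM with the scrambled siRNA (1.64-fold, log2 fold change 0.72, SE 0.18, adjusted p = 0.0438). LBR, a sterol reductase of the nuclear envelope, read 289, 237 and 224 CPM with siRNA-3 against 149, 175 and 178 CPM with the scrambled siRNA (1.49-fold, log2 fold change 0.58, SE 0.10, adjusted p = 0.00743). In both, siRNA-3 library 11-1 was the highest, and without it neither passed (adjusted p = 0.247 and 0.0553). They were called in 2 and 4 of the 6 fits. Of 15 genes of cholesterol uptake, storage and efflux and 18 of fatty acid synthesis edgeR called 0, with 2 at an unadjusted p under 0.05 in each, and DESeq2 called 0. Their members with the smallest p were SOAT1, which esterifies cholesterol (0.33), NPC1 (0.20), ACLY, the citrate lyase (-0.43), and ACSL3 (0.34), with adjusted p from 0.104 to 0.27.

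NNT was the 1 call among 18 enzymes that make NADPH. The others had log2 fold changes up to 0.38, and 6 of the 18 lay above 0. Of 28 tested thiol and superoxide defence genes 1 rose and 1 fell. MSRB3, a methionine sulfoxide reductase, read 349, 309 and 315 CPM with siRNA-3 against 211, 189.6 and 254 CPM with the scrambled siRNA (log2 fold change 0.57, SE 0.09, adjusted p = 0.00321) and was called in all 6 fits. The scrambled siRNA was the low group for MSRB3, with a mean of 218 CPM. The means were 324 CPM with siRNA-3, 293 with siRNA-2, 372 with the NNT shRNA and 375 with the scrambled shRNA. Between siRNA-3 and siRNA-2 MSRB3 was not called (adjusted p = 0.299). SOD2, the mitochondrial superoxide dismutase, read 78.7, 64.5 and 79.1 CPM with siRNA-3 against 102, 98.3 and 89.3 CPM with the scrambled siRNA (log2 fold change -0.38, SE 0.09, adjusted p = 0.0294) and was called in 2 of the 6. For SOD2 the scrambled siRNA was the high group, with a mean of 96.7 CPM. Its other group means were 74.1 (siRNA-3), 84.9 (siRNA-2), 84.6 (NNT shRNA) and 78.7 CPM (scrambled shRNA). Between siRNA-3 and siRNA-2 SOD2 was not called (adjusted p = 0.143).

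Of 31 genes of NRF2 and its targets, the antioxidant programme, edgeR called 0, with 6 at an unadjusted p under 0.05, and DESeq2 called 1. The median was -0.15, and 23 lay below 0. HMOX1, heme oxygenase, read 7.44, 8.19 and 10.1 CPM with siRNA-3 against 12.7, 12.8 and 14.1 CPM with the scrambled siRNA (log2 fold change -0.62, SE 0.26, adjusted p = 0.222). Of 26 glutathione genes edgeR called 0 too, with 5 at an unadjusted p under 0.05, and DESeq2 called 0, while the median was -0.12. The smallest p there were those of LAP3 (-0.24) and GGT1 (-0.65), with adjusted p of 0.134 and 0.147.

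In 5 lists of stress and cell death genes, 1 or 2 members were called. Of 38 tested genes that belong to the ATF4 integrated stress response, 1 rose, SLC38A2, a transporter of neutral amino acids, at 719, 666 and 569.9 CPM with siRNA-3 against 488, 404 and 422 CPM with the scrambled siRNA (log2 fold change 0.57, SE 0.11, adjusted p = 0.0157; median of the list 0.17). Of 23 endoplasmic reticulum chaperones 1 fell, HYOU1 (-0.29, adjusted p = 0.0338). Of 19 heat shock genes HSPD1 rose and CLPP, a protease of the mitochondrial matrix, fell (-0.53, adjusted p = 0.0477). MDM2, the ligase of p53 and a p53 target, was the 1 call of 22 p53 response genes and read 111, 116 and 131 CPM with siRNA-3 against 202, 221 and 173 CPM with the scrambled siRNA (log2 fold change -0.74, SE 0.15, adjusted p = 0.0158). CDKN1A, the p53-induced inhibitor of the cell cycle, was not called (60.9, 56.1 and 81.3 CPM with siRNA-3 against 88.3, 79.2 and 96.7 CPM with the scrambled siRNA, log2 fold change -0.41, SE 0.29, adjusted p = 0.484). BCL2L2, which opposes apoptosis, was the 1 call of 15 BCL2 family genes and fell by 0.43 (adjusted p = 0.0438). SLC38A2, HYOU1, CLPP, MDM2 and BCL2L2 were called in 4, 1, 1, 3 and 2 of the 6 fits that left out 1 library.

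In the cell cycle, 2 of 50 G1/S and DNA replication genes rose and 1 fell, 38 lay above 0 and the median was 0.11. Beside CCNE1 the gene that rose was E2F2, at 45, 51 and 44.6 CPM with siRNA-3 against 33.9, 28.9 and 31.6 CPM with the scrambled siRNA (log2 fold change 0.58, SE 0.09, adjusted p = 0.00264). The scrambled siRNA was the low group for E2F2, with a mean of 31.5 CPM. The means were 46.9 CPM with siRNA-3, 40.4 with siRNA-2, 44.1 with the NNT shRNA and 43.8 with the scrambled shRNA. The one that fell was CCND1, a G1 cyclin, which was under 1 CPM in all 6 libraries (0.293 ± 0.0546 CPM against 0.743 ± 0.0715 CPM, log2 fold change -1.34, SE 0.31, adjusted p = 0.0331) and was called in 0 of the 6 reduced fits. Of 38 genes of G2 and mitosis edgeR called 0, with 6 at an unadjusted p under 0.05, and DESeq2 called 0, though 34 lay above 0 and the median was 0.19. MKI67, the proliferation marker, read 814, 824 and 887 CPM with siRNA-3 against 497, 688 and 663 CPM with the scrambled siRNA (log2 fold change 0.45, SE 0.16, adjusted p = 0.154), and ANLN, of the cleavage furrow, had a log2 fold change of 0.38 (adjusted p = 0.169).

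Wnt pathway genes had the most calls of any list, 5 of 33 tested (15.2%, against 2.12% of all genes), all lower, with 26 below 0 and a median of -0.25. FZD7, a Wnt receptor, read 73.2, 67.2 and 71.7 CPM with siRNA-3 against 128, 102 and 91.8 CPM with the scrambled siRNA (log2 fold change -0.60, SE 0.11, adjusted p = 0.00695). WNT11, a ligand of noncanonical Wnt signalling, read 62.7, 59.7 and 66.5 CPM with siRNA-3 against 91.6, 83.3 and 91.3 CPM with the scrambled siRNA (log2 fold change -0.49, SE 0.09, adjusted p = 0.00721). Both were called in all 6 fits. APCDD1, a Wnt inhibitor (-0.68, adjusted p = 0.0312), and ISM1, a secreted protein (-0.78, adjusted p = 0.0403), were called in 2 and 1, and CCND1, also counted above, in 0. ISM1 was -0.51 (adjusted p = 0.052) without siRNA-3 library 23-5. AXIN2, a feedback inhibitor induced by Wnt signalling and named after its value was seen, missed the threshold (71.3 ± 2.74 CPM against 92.2 ± 9.47 CPM, log2 fold change -0.37, SE 0.10, adjusted p = 0.0657).

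Interferon response genes had 4 of 39 called (10.3%), all lower, with 30 below 0 and a median of -0.25. IFI44L, an interferon-induced gene, read 10.2, 8.73 and 12 CPM with siRNA-3 against 20.8, 16.5 and 16.7 CPM with the scrambled siRNA (log2 fold change -0.80, SE 0.16, adjusted p = 0.0158). IRF9, a subunit of the factor that interferon activates, read 14.7, 9.05 and 14.1 CPM with siRNA-3 against 21.5, 19.2 and 21.3 CPM with the scrambled siRNA (log2 fold change -0.71, SE 0.16, adjusted p = 0.0278). MR1, which presents metabolite antigens, and HERC6 fell by 0.48 and 0.51 (adjusted p = 0.0477 and 0.0477). The 4 were called in 3, 2, 1 and 2 of the 6 fits. For HERC6 the scrambled siRNA was the high group, its mean being 10.0 CPM. Its other group means were 7.04 (siRNA-3), 6.71 (siRNA-2), 7.27 (NNT shRNA) and 7.17 CPM (scrambled shRNA). In the test between siRNA-3 and siRNA-2, IFI44L, MR1 and HERC6 were not called (adjusted p = 0.306, 0.243 and 0.754). IRF9 was lower with siRNA-3 there (log2 difference -0.54, adjusted p = 0.0316), and the list median was -0.06. Of 30 TGF-beta and BMP genes edgeR called 0, with 9 at an unadjusted p under 0.05, and DESeq2 called 3, while the median was -0.14. The BMP targets ID1 and ID3 read 2.23, 1.44 and 6.25 CPM with siRNA-3 against 11.9, 5.93 and 11.4 CPM with the scrambled siRNA, and 2.86, 3.4 and 6.99 CPM with siRNA-3 against 14.3, 6.97 and 12.5 CPM with the scrambled siRNA, with adjusted p of 0.0671 and 0.0675; for each, the highest siRNA-3 library, 30-11, was above the lowest control, 23-5. Of 16 IGF and imprinted growth genes IGFBP2, an IGF-binding protein, fell (36.5, 49.9 and 43.7 CPM with siRNA-3 against 68.2, 63.8 and 68.6 CPM with the scrambled siRNA, log2 fold change -0.62, SE 0.14, adjusted p = 0.0278), while the list median was 0.26, of the opposite sign. In this list 11 genes lay above 0 and 5 below. At an unadjusted p under 0.05 in edgeR stood 8 of the 16 (17.8% of all genes), and DESeq2 called 4 (5.58% of all genes). IGFBP2 was called in 2 of the 6 fits.

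Of 51 complex I genes 1 fell, NDUFB5, an accessory subunit, at 40.7, 32.9 and 51.4 CPM with siRNA-3 against 70.9, 70.6 and 70.0 CPM with the scrambled siRNA (log2 fold change -0.76, SE 0.12, adjusted p = 0.00326), and the median of the list was 0.02. Complexes II to V (40 genes) and the TCA cycle (29 genes) had 0 calls in edgeR, with 2 and 3 at an unadjusted p under 0.05, and DESeq2 called 0 and 1. The smallest p in these were those of COX4I1 (0.22), UQCRFS1 (0.26), DLD (-0.20) and IDH3A (0.27). USMG5, described above, was not a member of the list. Of 25 glycolysis and pentose phosphate genes SLC2A1, the basal glucose transporter, fell (116, 103 and 129 CPM with siRNA-3 against 180.5, 182 and 183 CPM with the scrambled siRNA, log2 fold change -0.65, SE 0.14, adjusted p = 0.0202) and SLC2A3 rose (log2 fold change 0.61, SE 0.16, adjusted p = 0.0488). Of 43 mitochondrial carriers SLC25A3, the phosphate carrier, fell by 0.36 (adjusted p = 0.0393). NDUFB5 was called in all 6 reduced fits, SLC2A1 in 2, SLC2A3 in 1 and SLC25A3 in 1.

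The 17 lists without a call held 514 different tested genes, of which edgeR called 0, with 77 at an unadjusted p under 0.05 (14.98%, against 17.8% of all genes), and DESeq2 called 10 (1.95%, against 5.58%). These lists were grouped because edgeR called no member, so shares under those of all genes follow in part from that choice. Beside those above they were the mitochondrial ribosome (77 genes, median 0.06), the cytosolic ribosome (79 genes, 0.08), ribosome biogenesis (29 genes, 0.06), hypoxia genes (18 genes, 0.08), the RNA interference machinery (13 genes, 0.09), and the markers of other cells and of RNA quality. DICER1, which processes small RNAs, read 329.9, 423 and 253 CPM with siRNA-3 against 207, 288 and 183 CPM with the scrambled siRNA (log2 fold change 0.57, SE 0.17, adjusted p = 0.075). Histone cluster transcripts mostly lack a poly(A) tail, and their level can move with RNA quality. Their sum ran from 239.8 to 397 CPM after siRNA-3, the controls lying between 257 and 423 CPM, ranges that overlap, with a median of -0.14 over 36 genes.

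**Figure D4:**
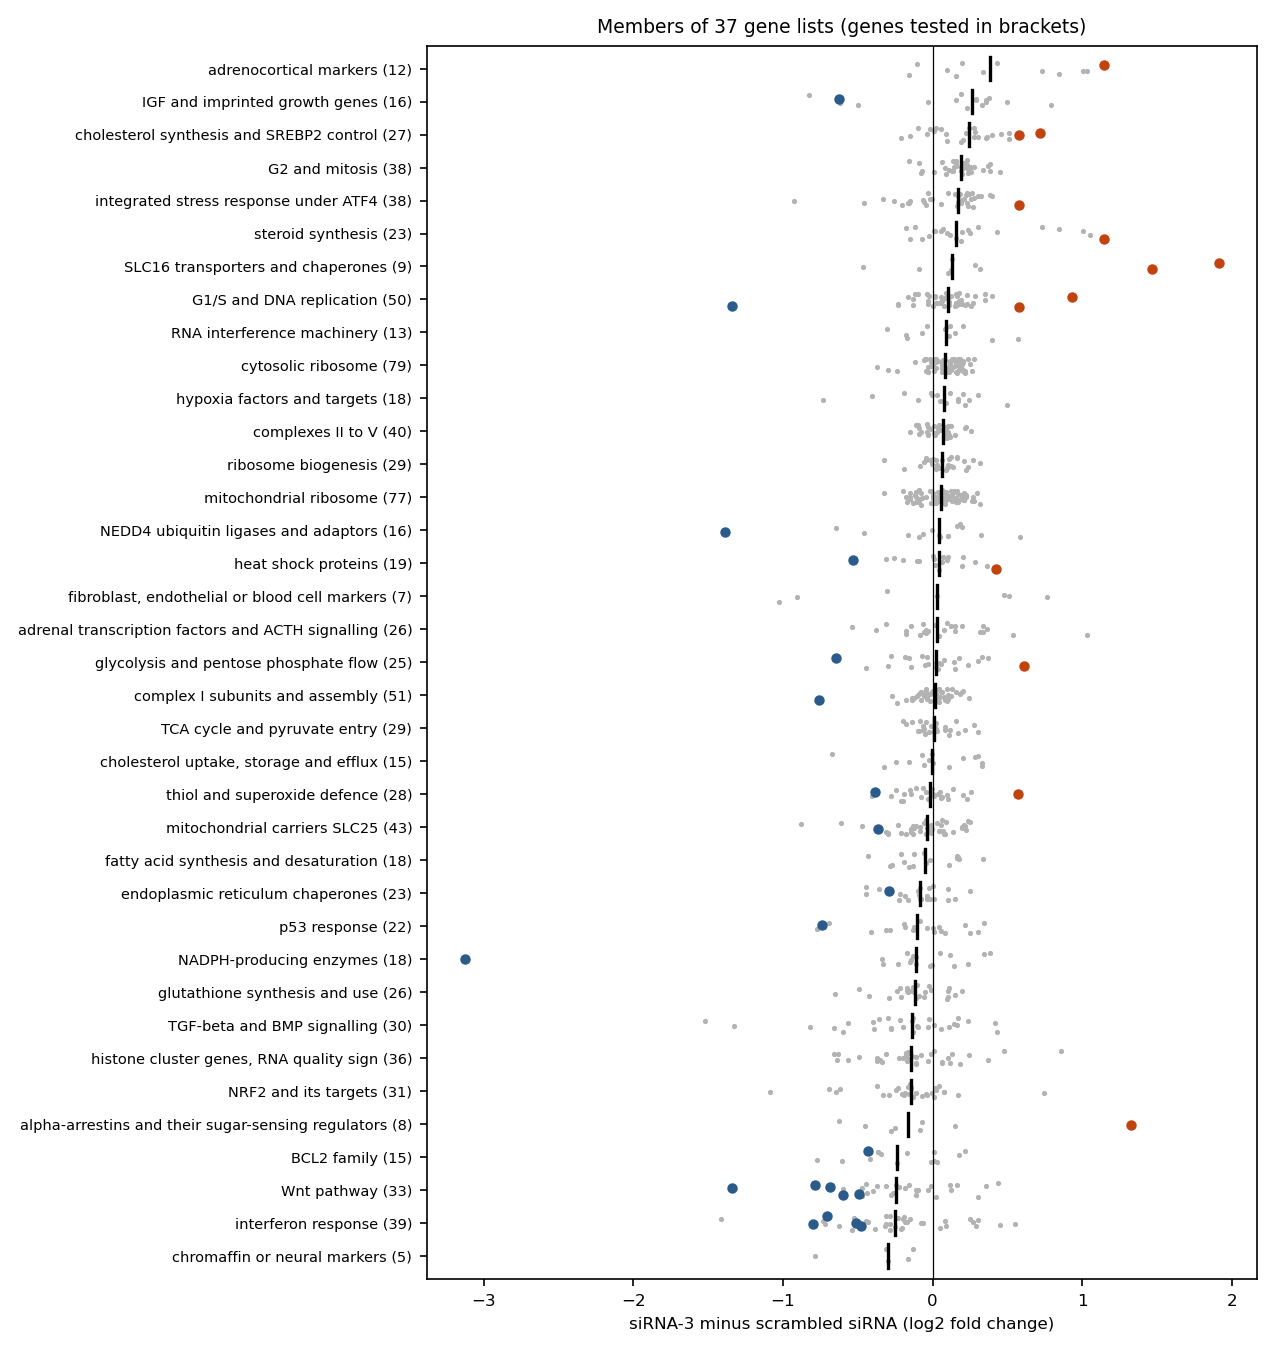
Log2 fold change of siRNA-3 against scrambled siRNA (x axis) for the tested members of 37 gene lists (y axis), ordered by list median (black bar). Orange and blue points were called higher and lower and grey points were not called; Wnt pathway and interferon lists carry the most blue points, 5 and 4.

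Where siRNA-3 differed from the other ways of lowering NNT was tested directly. Against siRNA-2, 2191 genes were called (14.4%), 1072 higher and 1119 lower with siRNA-3. The knockdowns were not of equal depth: NNT read 233, 49.9 and 187 CPM in the siRNA-2 libraries 11-12, 11-1 and 16-1, and was lower with siRNA-3 by a log2 difference of -2.02 (SE 0.34, adjusted p = 0.00111). SLC16A9 stood at 5.01, 3.61 and 4.2 CPM with siRNA-2, in each library under all siRNA-3 ones, with a difference of 2.21 (SE 0.17, adjusted p = 1.38e-06). CYP17A1 stood at 146, 113 and 149 CPM with siRNA-2, with a difference of 1.51 (SE 0.26, adjusted p = 0.00145). HSD3B2 differed by 1.51 (SE 0.48, adjusted p = 0.0398), a call that held in 8 of 15 alternative fits, and TGFBR3, a TGF-beta co-receptor, by 1.49 (SE 0.26, adjusted p = 0.00175). HSD3B2 ran from 17.1 to 21.2 CPM with siRNA-2 and read 62.9, 15.3 and 80.3 CPM with siRNA-3. Its siRNA-3 library 23-5 thus lay under every siRNA-2 library. Against the scrambled siRNA, TGFBR3 was not called with siRNA-3 (log2 fold change 0.41, SE 0.26, adjusted p = 0.426). Those lowest against siRNA-2 were CDKN1A, at 188, 532 and 183 CPM with siRNA-2 and a difference of -2.18 (SE 0.30, adjusted p = 0.00026), HMOX1 at -1.89 (SE 0.26, adjusted p = 0.000281) and ADRA2C, an adrenergic receptor, at -1.87 (SE 0.22, adjusted p = 0.000118). ADRA2C was also called lower with siRNA-3 than with the scrambled siRNA (log2 fold change -0.93, SE 0.23, adjusted p = 0.0388). That call held in 0 of the 6 fits that left out 1 library. Without siRNA-2 library 11-1 the differences were -1.49 for CDKN1A, -1.35 for HMOX1, -1.45 for ADRA2C and 1.13 for TGFBR3, and with a replicate block in the siRNA libraries that of NNT was -1.17, all still called. The count was 1092 without siRNA-3 library 11-1 and 1091 without siRNA-2 library 11-1.

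The NNT shRNA has its own control, so effects were compared as the difference of 2 log2 fold changes. The siRNA libraries are of 72 h and the shRNA libraries have no time given. A difference by reagent and one by duration therefore cannot be told apart in this comparison. NNT stood at 31.8 ± 2.95 CPM in the 4 shRNA libraries and 371 ± 49.9 CPM in the 3 of its control (means ± SD), and the effects differed by 0.42 (SE 0.44, adjusted p = 0.79). In all, 7 genes were called (0.046%), with 1570 at an unadjusted p under 0.05. RNF11 stood at 129, 116, 119 and 123.3 CPM with the shRNA and 120.4, 122.9 and 127 CPM with its control, a difference of effects of -1.37 (SE 0.18, adjusted p = 0.00841). METTL9 stood at 187 ± 12.8 and 186 ± 10.6 CPM there, a difference of -1.25 (SE 0.21, adjusted p = 0.0384). USMG5 at -1.08 (SE 0.15, adjusted p = 0.00841) and EFHD2 at -0.93 (SE 0.16, adjusted p = 0.048) were the other 2 that were lower.

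For these 4 genes, each siRNA-3 library was under each of the other 13 libraries of the series. They also differed from siRNA-2, RNF11 by -1.50 (SE 0.14, adjusted p = 1.5e-05), METTL9 by -1.30 (SE 0.16, adjusted p = 0.000118), USMG5 by -1.01 (SE 0.11, adjusted p = 5.43e-05) and EFHD2 by -1.01 (SE 0.12, adjusted p = 0.000118). The 3 genes with a higher effect of siRNA-3 were SLC16A9 at 1.36 (SE 0.22, adjusted p = 0.0344), PPP2R1B at 0.90 (SE 0.15, adjusted p = 0.0384) and TAPT1 at 0.69 (SE 0.11, adjusted p = 0.0344). TAPT1 stood at 46.1 ± 3.94 CPM with siRNA-3, 47.2 ± 1.07 with siRNA-2, 43.6 ± 0.948 with the NNT shRNA and 44.5 ± 0.886 with the scrambled shRNA, while the scrambled siRNA was the low group at 29.1 ± 2.1 CPM. PPP2R1B stood at 45.3 ± 3.28 CPM with the scrambled siRNA and 58.1 ± 4.93 CPM with the scrambled shRNA. The difference for CYP17A1 was 1.31 (SE 0.35, adjusted p = 0.19) and for ARRDC3 1.12 (SE 0.22, adjusted p = 0.0609), neither past the threshold. Over 23 alternative fits RNF11 and USMG5 passed in 22 each, and the other 5 in 6 to 11. Leaving out 1 library moved the count of 7 to between 0, without scrambled shRNA library 18-3, and 42, without siRNA-3 library 30-11, and it was 29 without siRNA-2 library 11-1.

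**Figure D5:**
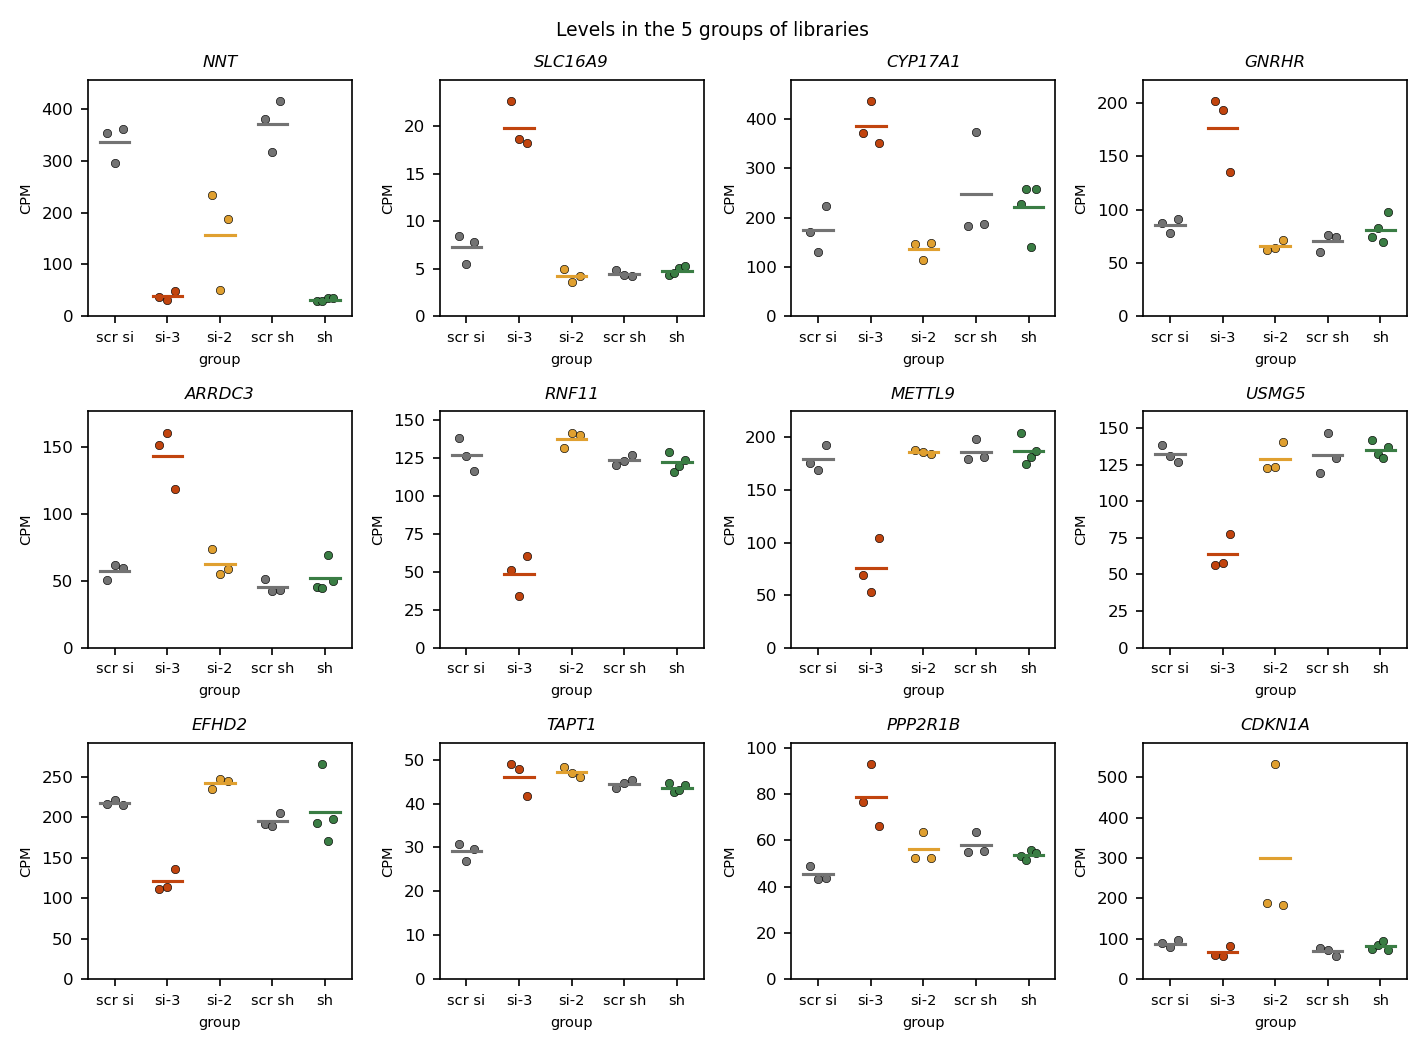
CPM (y axis, from 0) of 12 genes in the 5 groups (x axis: scrambled siRNA, siRNA-3, siRNA-2, scrambled shRNA, NNT shRNA), 1 point per library with the group mean as a line. RNF11, METTL9, USMG5 and EFHD2 are low in the siRNA-3 libraries alone among the groups shown, and CDKN1A is highest with siRNA-2.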

How the data were processed

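RNA of NCI-H295R cells was sequenced as poly(A)-selected, stranded libraries in 1 pool, per the labels' protocols. The authors deposited read counts per gene for each of 4 lanes of 16 libraries; per the submitters' processing notes the tools were STAR 2.4.2a, HTSeq 0.6.1p1 and DESeq2 1.14.1 with build hg19. Their annotation, counting mode and use of strand are unstated in the sources used here. Lanes were summed over 26364 listed genes. Entries that name no gene stayed out of totals: 11.3% to 16.5% of reads had no feature, 1.05% to 1.33% were ambiguous and 7.47% to 8.17% were not unique. Totals of 20148231 to 43992833 counts set the precision.

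Genes were kept by edgeR 4.0.16's filter (minimum count 10), scaled by TMM and fitted with its quasi-likelihood test in R 4.3.3, with 1 term per group over all 16 libraries (biological coefficient of variation 0.118, 11 residual degrees of freedom) and Benjamini-Hochberg adjustment at 0.05. Alternatives were DESeq2 1.42.0 as a test and as a scaling, other filters, robust dispersion, lane 1 alone, fewer libraries, a replicate block and each library left out. The scripts were tested on simulated counts.

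Named genes were NNT, SLC16A9, CYP17A1 and 5 more steroid genes; the 10 highest and 10 lowest called genes of average log2 CPM of at least 3 with groups apart; up to 10 each way, by p, called in the full fit and in all 6 fits without 1 library; the 3 of highest CPM each way; up to 6 called members of each of 37 lists, or else the 2 smallest p; and the 4 highest and lowest of both further comparisons. Some that met the rule are given by count only or are not reported here. Members and lists were chosen with earlier results of these data known. Promoters and gene positions are on GRCh38, which is not the files' build.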

Additional observations from a re-analysis of the deposited data

Results flagged for a closer look

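Differences of siRNA-3 from another way of lowering NNT were tested directly (edgeR's quasi-likelihood test, adjusted over 15201 genes). The test against siRNA-2 compared levels, and the one against the NNT shRNA compared effects. Called against siRNA-2 were 2191 genes, and between the effect of siRNA-3 and that of the NNT shRNA there were 7. All values are log2 differences, with siRNA-3 as the first term.

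Against siRNA-2, SLC16A9 differed by 2.21, CYP17A1 by 1.51, HSD3B2 by 1.51 and TGFBR3 by 1.49. On the lower side were CDKN1A at -2.18, NNT at -2.02, HMOX1 at -1.89 and ADRA2C at -1.87. Of these 8, all but HSD3B2 passed in each of 15 alternative fits, and HSD3B2 passed in 8. Over those fits CDKN1A ran from -2.45 to -1.49, NNT from -2.44 to -1.17, HMOX1 from -2.31 to -1.35 and TGFBR3 from 1.13 to 2.10. Between siRNA-3 and the scrambled siRNA, CDKN1A, HMOX1, TGFBR3 and HSD3B2 were not called (adjusted p = 0.484, 0.222, 0.426 and 0.271 in the same edgeR test). ADRA2C was called lower there (adjusted p = 0.0388), though in 0 of the fits that left out 1 library of these groups.

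In the comparison of effects with the shRNA, SLC16A9 differed by 1.36, PPP2R1B by 0.902 and TAPT1 by 0.694. RNF11 differed by -1.37, METTL9 by -1.25, USMG5 by -1.08 and EFHD2 by -0.932. For METTL9, EFHD2, TAPT1, PPP2R1B and SLC16A9 the difference passed in 10, 9, 9, 6 and 11 of 23 alternative fits, and for RNF11 and USMG5 in 22.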

How the results depend on the processing

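No alternative reversed a direction among the named genes. Of 37 list medians, 12 changed sign under at least 1 of 9 alternatives, all of them under 0.15 in size, among them complex I, the RNA interference machinery (-0.0262 to 0.12) and histone cluster genes (-0.338 to 0.0642). Of 323 calls, DESeq2's test gave 848 (322 shared), a fit of the 9 siRNA libraries 54 (52 shared) and one of these 6 libraries alone 56 (50 shared); leaving out 1 library gave 69 to 594. Other filters, DESeq2's scaling, robust dispersion and lane 1 alone gave 228 to 385. Against siRNA-2, the 2191 calls became 1293 with the 9 siRNA libraries, and 1091 to 2101 with 1 library left out. For the difference from the shRNA, the 7 calls became 29 with no filter on low counts and 122 with DESeq2, and 0 to 42 with 1 library left out.

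The siRNA-3 and scrambled groups share only the codes 23-5 and 30-11, whose libraries deviated together (r = 0.361 and 0.367, against -0.318 to 0.16 for other pairs); nothing says that a code pairs them. A replicate block on the code in the 9 siRNA libraries, with 2 residual degrees of freedom, called 18 genes, 17 of them among the 323, where those 9 libraries without a block called 54, and 1452 against siRNA-2. The block over all 16 libraries, with 4 residual degrees of freedom, called 454 (230 shared), 2794 against siRNA-2 and 9 for the difference from the shRNA (5 shared). Of 59 named called genes, 11 passed with the first block, 52 with the second, 27 with the 6 libraries alone, 31 with the 9, 49 with lane 1, 32 to 57 with 1 library of the 2 groups left out, and 55 to 59 with DESeq2, its scaling, other filters and robust dispersion. The 59 leave out ADRA2C, ITGA1 and SESN3.

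Differences of genes with few counts, such as CCND1, are limited by depth. The block over 16 libraries and leaving out other groups' libraries were chosen after seeing the data.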
